A study of Homo sapiens with 10 samples.

Results

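PC-3 is a human prostate cancer cell line, established from a bone metastasis, that grows without androgens. Here it was grown as three-dimensional spheroids and exposed to topotecan, a drug that traps topoisomerase I on DNA, and RNA was sequenced from 1 library for each treatment and day. The comparison described is between the 2 libraries of day 7 that received the drug on different schedules. The time is that of the labels, while the published text describes an exposure of several weeks for this model, so the length of exposure behind these libraries is uncertain. CONV-TOPO spheroids received topotecan as a bolus (labelled conventional), and EE-TOPO spheroids received it as daily fractions (labelled extended exposure, or METRO), which is how low-dose metronomic dosing was imitated. Untreated spheroids of days 0, 3 and 7 gave the range of values without drug, and the same schedules on day 3 gave a second pair of libraries. All libraries came from unmodified (WT) PC-3 cells of 1 line. The genes compared were those with a mean of at least 10 CPM (reads per 1000000 reads counted) over the 2 day-7 libraries, 9411 of the 18144 genes listed. Of the 10 samples in the series, 7 were used, and the day-1 libraries, 3 in number, are not analysed here.

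There were no replicates, so no difference below has a test. Intervals beside a ratio of EE-TOPO to CONV-TOPO are exact 95% intervals that cover counting error only. Depth, read from the steps of 1 read in low CPM values and given in units of 1000000 reads, was 15.02 for EE-TOPO and 16.4 for CONV-TOPO on day 7 and 15.2 to 22.5 in the other libraries. Of the 10 genes listed as typical of PC-3, 10 were compared, by a filter that uses the treated libraries only. TFF3, 1 of them, was at 6.06 to 7.67 CPM untreated. CTNNA1, which PC-3 is known to lack, was at most at 0.42 CPM in every library, whereas TMPRSS2, listed as low in this line, was at 71.4 to 149 CPM. Both day-7 treated libraries held more ribosomal RNA (2.08% of reads with EE-TOPO and 2.19% with CONV-TOPO) than the other 5 (0.484% to 0.615%). In whole spheroids, fewer cells of a type and less RNA per cell cannot be told apart.

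Topotecan holds topoisomerase I in a complex that is cleaved on 1 strand, and DNA breaks arise where replication or transcription runs into it. Schedules of equal total dose differ in how long cells are exposed at a time. In the published schedule the totals were equal over a week of dosing, and so not yet on day 3. The lists described below, among them keratins, secreted inflammatory factors, sterol synthesis and the cell cycle, were mostly picked for their medians. What caused the differences was not tested.

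Few genes were far apart between the schedules. With EE-TOPO, 23 of the 9411 genes were at least 2-fold higher than with CONV-TOPO (0.244%) and 14 were at least 2-fold lower (0.149%). The higher genes included the keratins KRT17 and KRT75 and the chemokine CXCL5, the lower genes included all 4 gel-forming mucins that were listed, and most of the others were single genes of varied function. Because the filter is on the mean, a gene low in 1 library could pass through the other. Most of the higher genes did so, with CONV-TOPO under 10 CPM. They ran from HIF1A-AS2 (4.78 CPM) and KRT17 (5.29 CPM) through CXCL5 (7.66 CPM) to GEM (9.18 CPM). The others were ZNF526, HTD2, ZNF564, DLL4, AQP3, TRIM31, ENTPD3, KRTAP2-3 and CD74. Of the lower genes only KCNK12 did, at 9.85 CPM with EE-TOPO. With a filter of 20 CPM, 9 genes were higher and 12 lower. At a threshold of 1.5-fold, 188 genes were higher (2.0%) and 139 were lower (1.48%). The log2 ratio over all genes had a median of 0.01 and an SD of 0.259. For scale, 130 to 196 genes lay at least 2-fold apart between pairs of untreated libraries, 34 between the schedules on day 3, and 2051 (EE-TOPO) and 1853 (CONV-TOPO) between a treated and the untreated library of day 7. Over genes (not independent replicates) the day-7 ratio had rank correlations of 0.02 with transcript length, 0.06 with GC content and -0.05 with gene span, where the day-3 ratio had 0.40, -0.32 and 0.34.

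**Figure D1:**
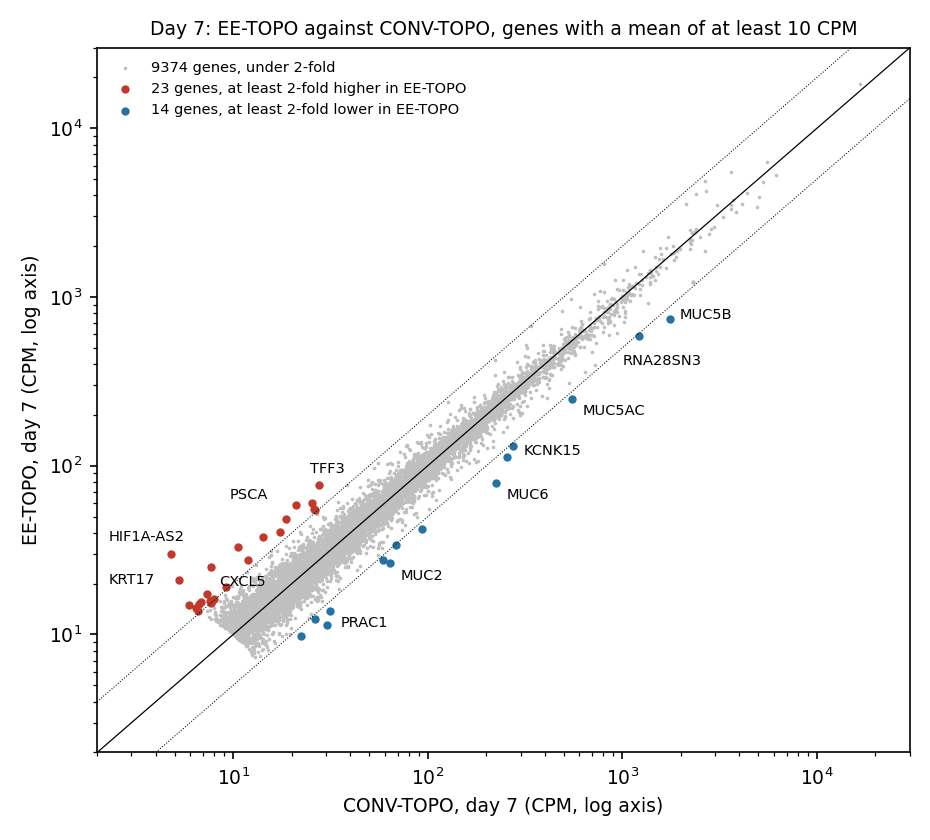
CPM with EE-TOPO against CPM with CONV-TOPO on day 7 (both axes log), 1 point per gene with a mean of at least 10 CPM and 1 library per axis. The solid line marks equal values and the dotted lines 2-fold. Most genes lie near the line, with 23 genes (red) above and 14 (blue) below the 2-fold lines.

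The gel-forming mucins, large secreted glycoproteins that make up mucus, were all lower with EE-TOPO. MUC6, MUC2, MUC5AC and MUC5B lie next to each other on chromosome 11 of hg38, from base 1012823 to base 1262173, a stretch of 249 kb. MUC5B stood at 2541 (day 0), 2140 (day 3) and 3394 CPM (day 7) without drug, at 1749 CPM with CONV-TOPO on day 7 and at 745 CPM with EE-TOPO. Its ratio was 0.426 (95% interval 0.417 to 0.435), and EE-TOPO lay below every other library. MUC6 was at 200 CPM, 161 CPM and 253 CPM untreated, at 224 CPM with CONV-TOPO and at 79.5 CPM with EE-TOPO, a ratio of 0.355 (0.332 to 0.379). For MUC5AC the untreated values were 521, 335 and 616 CPM, with 551 CPM under CONV-TOPO and 249 CPM under EE-TOPO, a ratio of 0.453 (0.436 to 0.470). MUC2 was the lowest of the family, at 33.6 to 45.4 CPM untreated, 64.1 CPM with CONV-TOPO and 26.5 CPM with EE-TOPO, a ratio of 0.413 (0.368 to 0.464). So EE-TOPO was below the untreated range for 4 of 4 genes, whereas CONV-TOPO was inside it for 2, above it for MUC2 and below it for MUC5B. With values scaled by TMM (described with the cholesterol genes), EE-TOPO was below for 4 and CONV-TOPO above for 3 and below for 1. Summed over the family, the level was 2588 CPM with CONV-TOPO and 1100 CPM with EE-TOPO, against 2682 to 4306 CPM untreated.

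On day 3 the mucin sum was 2817 CPM with CONV-TOPO and 2953 CPM with EE-TOPO, so the gap of day 7 was not seen on day 3. MUC2 was the exception, with a log2 ratio of -0.65 on day 3 already. The other 10 genes compared within the window from base 800000 to base 1500000 of the chromosome had log2 ratios between -0.25 and 0.40. AP2A2, next to MUC6, was at -0.25 and TOLLIP, next to MUC5B, at 0.25. Mucins that span the membrane did not share the pattern, as MUC1 was at -0.20, MUC16 at -0.03 and MUC3A at 0.35. TFF3, a trefoil peptide secreted together with mucins, went the other way, at 27.5 CPM with CONV-TOPO and 76.9 CPM with EE-TOPO against 6.06 to 7.67 CPM untreated. In the deposited coordinates TFF3 overlaps many other genes, CBS, U2AF1 and SIK1 among them, so its count is uncertain. The mucin lists were chosen after their values were seen, and gel-forming mucins hold long repeats in which reads are hard to place. TGANTCA, the motif of the stress-responsive AP-1 factors, was held by 4.35% of promoters of the genes compared. Any part of AP-1 in the MUC2 level was not tested. The promoter of MUC2 (RefSeq, GRCh38.p14, plus strand, 250 bases before to 50 after the start, chr11:1074624-1074923) is shown because it held a match, in capitals:
MUC2: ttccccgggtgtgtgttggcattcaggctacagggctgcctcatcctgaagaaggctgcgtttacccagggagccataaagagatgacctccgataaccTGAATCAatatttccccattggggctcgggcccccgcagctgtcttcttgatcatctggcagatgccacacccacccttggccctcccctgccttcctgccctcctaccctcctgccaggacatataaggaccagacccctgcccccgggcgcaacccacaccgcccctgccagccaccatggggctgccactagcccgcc

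Genes of cholesterol synthesis and uptake were lower with EE-TOPO as a group. These genes share control by the SREBP factors, which are released when sterol in the endoplasmic reticulum is low. Of 23 members compared, 22 were lower and 18 were at least 20% lower (7.62% of all genes were), and 0 were at least 25% higher (9.39% of all genes were). The median log2 ratio was -0.56, the lowest of the 51 lists with at least 5 genes compared, against 0.01 over all genes. On day 3 the median was -0.01.

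HMGCS1, which makes the HMG-CoA from which the pathway starts, was at 104 CPM, 134.5 CPM and 120.3 CPM untreated, at 110.1 CPM with CONV-TOPO and at 62.9 CPM with EE-TOPO. Its ratio was 0.572 (0.528 to 0.619). IDI1, an isomerase of the isoprenoid steps, was at 76.5 CPM with CONV-TOPO and 44.4 CPM with EE-TOPO, where the untreated libraries ran from 52.2 to 68.1 CPM. In both genes EE-TOPO lay under the untreated range, and for IDI1 CONV-TOPO lay above it. HSD17B7, which reduces a keto group in the late steps, showed the lowest ratio of the list, from 28.7 to 15.9 CPM (log2 -0.85). INSIG1, which holds SREBP back when sterol is plentiful, was at 181 CPM with CONV-TOPO, above the untreated range, and at 106 CPM with EE-TOPO, inside it (log2 -0.78). The epoxidase SQLE was at -0.74 on the log2 scale. SREBF2, which encodes an SREBP factor, was at -0.12, so not every gene of the list took part to the same degree.

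Where each schedule stood relative to untreated spheroids depended on the scaling, and the ratio between them hardly did. With CONV-TOPO, 15 of 23 genes were above the untreated range and 3 below, whereas with EE-TOPO 7 were above and 10 below. Relative to untreated day 7, the median log2 ratio of the list was 0.31 with CONV-TOPO and -0.23 with EE-TOPO. Scaling by TMM, which trims the extreme genes before libraries are aligned, raised every ratio to untreated day 7 by 0.28 with CONV-TOPO and by 0.25 with EE-TOPO, and placed CONV-TOPO above the range for 19 genes and EE-TOPO above it for 11 and below it for 9. The direct ratio of the schedules moved by -0.03 only.

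**Figure D2:**
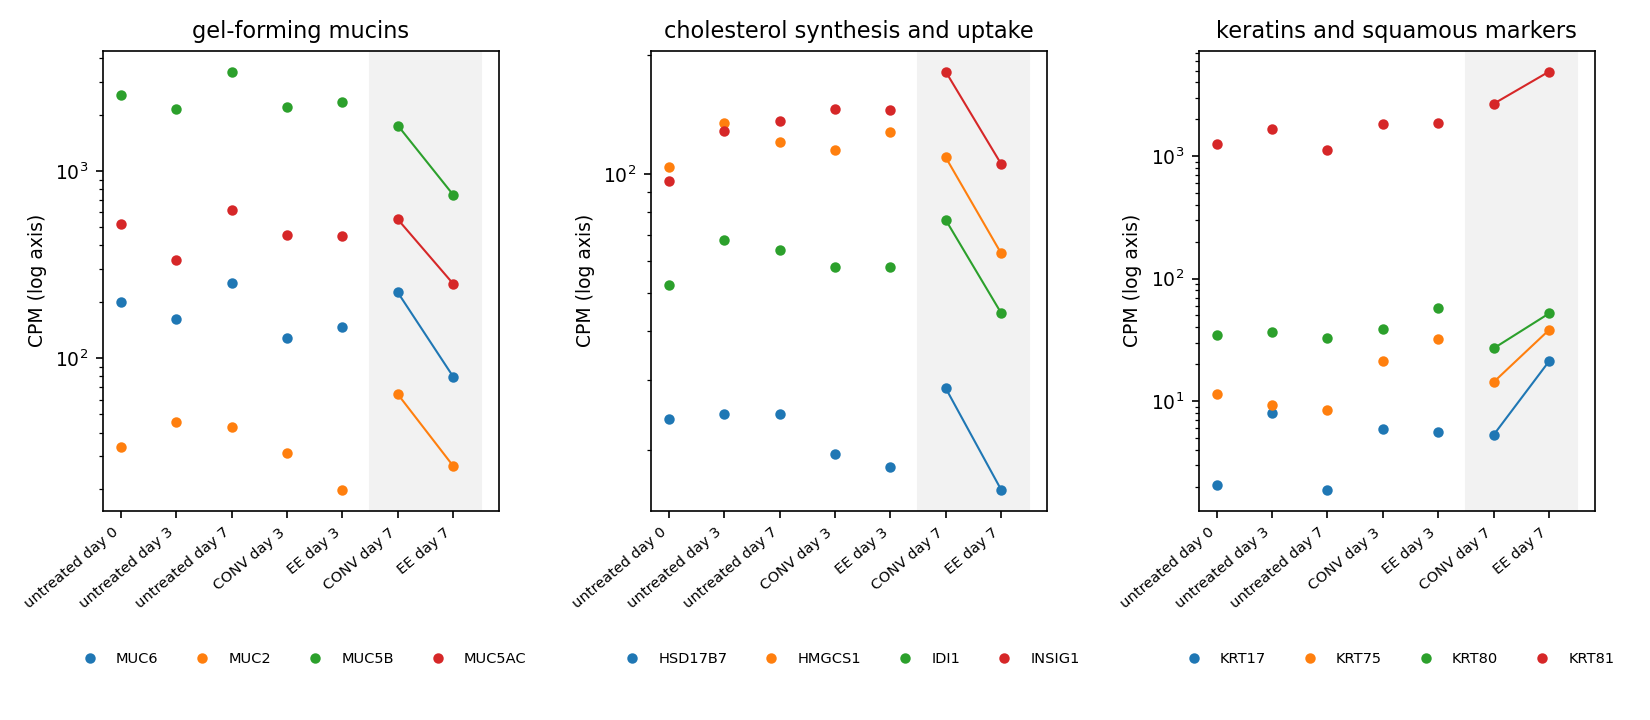
CPM (log axes) in each of the 7 libraries for the 4 gel-forming mucins and for the 4 members with the largest ratios of the cholesterol and the keratin list. Each point is 1 library, and lines join CONV-TOPO to EE-TOPO on day 7 (shaded). The 4 mucins and the 4 cholesterol genes go down from CONV-TOPO to EE-TOPO and the 4 keratins go up.

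Keratins and markers of squamous cells were higher with EE-TOPO. Keratins form the intermediate filaments of epithelial cells, and several of them are induced where epithelium is wounded. Of 10 members compared, 9 were higher, 8 by at least 25%, and 0 were at least 20% lower. Over all genes 9.39% were at least 25% higher and 7.62% at least 20% lower. The median log2 ratio was 0.65, against 0.01 over all genes and -0.03 for the same list on day 3.

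KRT17, a keratin of activated basal cells, was at 2.05, 8.03 and 1.89 CPM untreated, at 5.29 CPM with CONV-TOPO and at 21.1 CPM with EE-TOPO, a ratio of 3.99 (3.14 to 5.12). KRT75, known from hair follicles, was at 8.46 to 11.3 CPM untreated, at 14.3 CPM with CONV-TOPO and at 38.1 CPM with EE-TOPO (ratio 2.67). Among all libraries both keratins were highest with EE-TOPO on day 7. KRT81, a hair keratin whose gene overlaps the deposited span of KRT86, was far more abundant, at 2675 CPM with CONV-TOPO and 4896 CPM with EE-TOPO against 1112 to 1665 CPM untreated (log2 0.87). KRT80 was at 26.9 CPM and 51.9 CPM (log2 0.95), with CONV-TOPO below and EE-TOPO above the untreated range of 32.5 to 36.6 CPM. PI3, the protease inhibitor elafin, was at 0.75 and KRT7 at 0.54 on the log2 scale, while SFN, the 14-3-3 protein of squamous cells, was at -0.03. With EE-TOPO 10 of 10 members lay above the untreated range, and with CONV-TOPO 8 of 10.

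Ligands of the receptor CXCR2, which draw neutrophils, and the cytokines listed with them were higher with EE-TOPO than with CONV-TOPO. Of 9 members compared, 8 were higher, 6 by at least 25% (9.39% of all genes were), and the median log2 ratio was 0.64 (0.11 on day 3). CXCL5 was at 7.66 CPM with CONV-TOPO and 25.02 CPM with EE-TOPO, a ratio of 3.27 (2.66 to 4.03). CXCL8, or interleukin-8, was at 127 CPM with CONV-TOPO and 239 CPM with EE-TOPO, a ratio of 1.88 (1.78 to 1.99). CXCL6 (log2 0.82) and the interleukin-6 family member LIF (log2 0.75) were higher too, whereas CXCL1 was at -0.18.

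The untreated range was wide here because the untreated day-3 library held these genes at high levels, with CXCL8 at 1600 CPM where the untreated day-0 library held 170 CPM and that of day 7 held 174 CPM. With that library in the range, EE-TOPO was inside it for 7 of 9 genes and above it for 1, IL32. Without it, EE-TOPO was above the range for 6 of 9 genes and CONV-TOPO for 2. The AP-1 motif was held by 4.35% of promoters of the genes compared, and its part in the CXCL8 level was not tested. The promoter of CXCL8 (RefSeq, GRCh38.p14, plus strand, chr4:73740319-73740618) is shown because it held this motif, in capitals, 137 bases before the start:
CXCL8: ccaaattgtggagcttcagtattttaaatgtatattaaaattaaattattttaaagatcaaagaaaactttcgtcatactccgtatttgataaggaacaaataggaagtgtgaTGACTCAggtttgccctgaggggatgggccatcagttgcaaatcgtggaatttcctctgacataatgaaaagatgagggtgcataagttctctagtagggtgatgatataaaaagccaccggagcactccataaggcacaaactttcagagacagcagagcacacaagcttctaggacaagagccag

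Extracellular proteases and their inhibitors had a median log2 ratio of 0.21, with 14 of 18 members higher, 5 of them by at least 25%, and 1 at least 20% lower. Over all 9411 genes, 4884 were higher, 9.39% by at least 25%, and 7.62% were at least 20% lower, so the share of the list that was lower was no larger than that of all genes. PLAU, the urokinase that activates plasminogen, was at 805 CPM with CONV-TOPO and 1568 CPM with EE-TOPO, where the untreated libraries held 701 to 2464 CPM. Its inhibitor SERPINB2 was at 11.97 CPM with CONV-TOPO, inside the untreated range of 8.07 to 24.2 CPM, and at 27.7 CPM with EE-TOPO, above it (ratio 2.32, 1.95 to 2.76). So the protease and its inhibitor were both higher with EE-TOPO. The collagenase MMP1 was at 0.55 and the lysosomal protease CTSL at -0.48 on the log2 scale. The AP-1 motif was held by 4.35% of promoters of the genes compared, and its part in the SERPINB2 level was not tested. SERPINB2 was 1 of the 3 genes at least 2-fold higher whose promoter held the motif (RefSeq, GRCh38.p14, plus strand, chr18:63887455-63887754, motif in capitals):
SERPINB2: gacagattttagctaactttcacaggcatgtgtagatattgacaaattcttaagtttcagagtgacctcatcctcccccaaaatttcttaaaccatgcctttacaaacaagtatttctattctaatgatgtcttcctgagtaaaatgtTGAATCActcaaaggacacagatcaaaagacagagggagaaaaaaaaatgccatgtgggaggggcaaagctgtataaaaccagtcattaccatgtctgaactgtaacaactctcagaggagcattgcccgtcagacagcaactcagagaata

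The markers given for this comparison went in different directions. SNAI2, or Slug, a repressor of epithelial genes in the epithelial-mesenchymal transition (EMT), was under the filter with a mean of 5.74 CPM. It was at 8.67, 8.98 and 9.61 CPM untreated, at 3.10 CPM with CONV-TOPO and at 8.38 CPM with EE-TOPO, a ratio of 2.71 (1.94 to 3.82). CONV-TOPO was thus the low library and EE-TOPO lay just under the untreated range. Day 3 gave the same order, with 5.79 CPM under CONV-TOPO and 13.4 CPM under EE-TOPO. Of the 10 EMT transcription factors listed, TWIST1 alone passed the filter, at 32.3 CPM and 33.1 CPM (log2 0.04). ZEB1, another such repressor, was at 4.92 CPM with CONV-TOPO and 4.39 CPM with EE-TOPO, both below its untreated range of 9.77 to 16.2 CPM. SNAI1, a relative of SNAI2, was at 2.67 CPM with CONV-TOPO and 3.39 CPM with EE-TOPO (ratio 1.27, 0.831 to 1.94), and TCF4 was at 8.08 CPM and 10.05 CPM (ratio 1.24, 0.978 to 1.58). With 1 member past the filter, nothing is said of these factors as a group.

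Laminin-332 is the basement membrane protein that epithelial cells hold through integrin α6β4, and its β3 chain and that receptor stood on opposite sides. LAMB3, its β3 chain, was at 249, 542 and 341 CPM untreated, at 487 CPM with CONV-TOPO and at 831 CPM with EE-TOPO, a ratio of 1.71 (1.66 to 1.75). The α chain LAMA3 was at 0.15. On the receptor side, ITGA6 was at 202 CPM and 127 CPM (log2 -0.68) and ITGB4 at 2650 CPM and 1870 CPM (log2 -0.50). Over the 11 members of the list the median was 0.15, with 2 at least 25% higher and 2 at least 20% lower (18.2% each). Over all genes the shares were 9.39% and 7.62%. The promoter of LAMB3 held CAGGTG, an E-box that Slug is known to bind, as did 17.5% of promoters of the genes compared. Any part of Slug in the LAMB3 level was not tested. The promoter (RefSeq, GRCh38.p14, minus strand, chr1:209652376-209652675) is shown with the match in capitals, 218 bases before the start:
LAMB3: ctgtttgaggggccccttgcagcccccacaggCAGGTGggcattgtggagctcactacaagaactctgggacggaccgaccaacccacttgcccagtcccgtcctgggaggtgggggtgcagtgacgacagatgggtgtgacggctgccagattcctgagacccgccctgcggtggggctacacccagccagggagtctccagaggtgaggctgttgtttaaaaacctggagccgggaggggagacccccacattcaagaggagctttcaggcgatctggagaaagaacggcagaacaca

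CD55, which protects cells from complement, was at 178 CPM with CONV-TOPO and 139 CPM with EE-TOPO, both below the untreated range of 212 to 282 CPM (log2 -0.36). In its list of complement regulators and MHC class I genes it was the only one of the 14 compared members at least 20% lower. That share, 7.14%, is near the 7.62% of all genes. In the same list 3 members (21.4%) were at least 25% higher, against 9.39% of all genes. NLRC5, an activator of class I genes under the filter, was at 9.97 CPM with CONV-TOPO and 6.79 CPM with EE-TOPO. Among the class I genes, which present peptides to T cells, the largest ratios were HLA-B at 0.52 and HLA-C at 0.45 on the log2 scale. In HLA-B and HLA-C, CONV-TOPO and EE-TOPO lay above the untreated range. HAS3, a hyaluronan synthase, was at 572 CPM and 520.1 CPM (log2 -0.14), and its deposited span overlaps CHTF8 and DERPC on the other strand.

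The genes furthest apart that belong to no list above varied in function. HIF1A-AS2, a transcript antisense to the end of HIF1A, was at 0.537 to 0.874 CPM untreated, at 4.78 CPM with CONV-TOPO and at 30.02 CPM with EE-TOPO. That was the highest ratio of all, 6.28 (4.93 to 8.08). HIF1A itself was at 120.5 CPM and 113 CPM with the schedules, against 365 to 394 CPM untreated, and reads of the overlapping genes cannot be told apart where strand was not used. HEPHL1, a copper ferroxidase, was at 9.12 to 12.3 CPM untreated and 10.6 CPM with CONV-TOPO, and at 32.9 CPM with EE-TOPO (log2 1.63). PSCA, a surface antigen of prostate cancer, was at 6.01 to 8.35 CPM untreated, at 21.1 CPM with CONV-TOPO and at 58.6 CPM with EE-TOPO (log2 1.47). Of these genes, CONV-TOPO was inside the untreated range for HEPHL1 and above it for HIF1A-AS2 and PSCA.

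RGS4, which shortens signals of G proteins, was at 1.39, ZNF526 at 1.33, the interleukin-33 receptor IL1RL1 at 1.24 and the ubiquitin ligase TRIM31 at 1.23 on the log2 scale. PMEPA1, a brake on TGF-β signals that overlaps NKILA on the other strand, the Notch ligand DLL4 and the water and glycerol channel AQP3 were at 1.21, 1.19 and 1.19. The remaining genes at least 2-fold higher were HTD2, ALPP, GEM, ENTPD3, ZNF564, the stress factor ATF3, CD74 and KRTAP2-3, between 1.15 and 1.00. HTD2, ENTPD3 and CD74 overlap another gene, and ALPP and KRTAP2-3 have close paralogs, so their counts are uncertain. The last gene inside the threshold was KRTAP2-3 (log2 1.001) and the next gene outside it was NABP1 (0.996).

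On the lower side stood C8orf58 (log2 -1.43), which overlaps another gene, the prostate-expressed PRAC1 (-1.19), the superoxide-producing NOX5 (-1.19), the aldehyde dehydrogenase ALDH3A1 (-1.16), the phosphatase regulator PHACTR3 (-1.09) and RAB3B of secretory vesicles (-1.08). The potassium channel genes KCNK12 (-1.18) and KCNK15 (-1.08) and the thromboxane synthase TBXAS1 (-1.03) completed it apart from a ribosomal RNA copy. NOX5 was at 142 to 262 CPM untreated, at 255 CPM with CONV-TOPO and at 112 CPM with EE-TOPO. KCNK15, which overlaps RIMS4 on the other strand, differed in that EE-TOPO, at 130.4 CPM, lay next to the untreated range of 95.5 to 128 CPM and CONV-TOPO, at 275 CPM, stood above it. The copy RNA28SN3 (-1.04) is uncertain, since its near-identical copies RNA28SN1, RNA28SN2 and RNA28SN5 were at 0.77, 0.60 and 0.66. NFKBIZ, just outside the threshold at -0.98, was at 93.4 to 184 CPM untreated, at 24.6 CPM with CONV-TOPO and at 12.5 CPM with EE-TOPO.

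**Figure D3:**
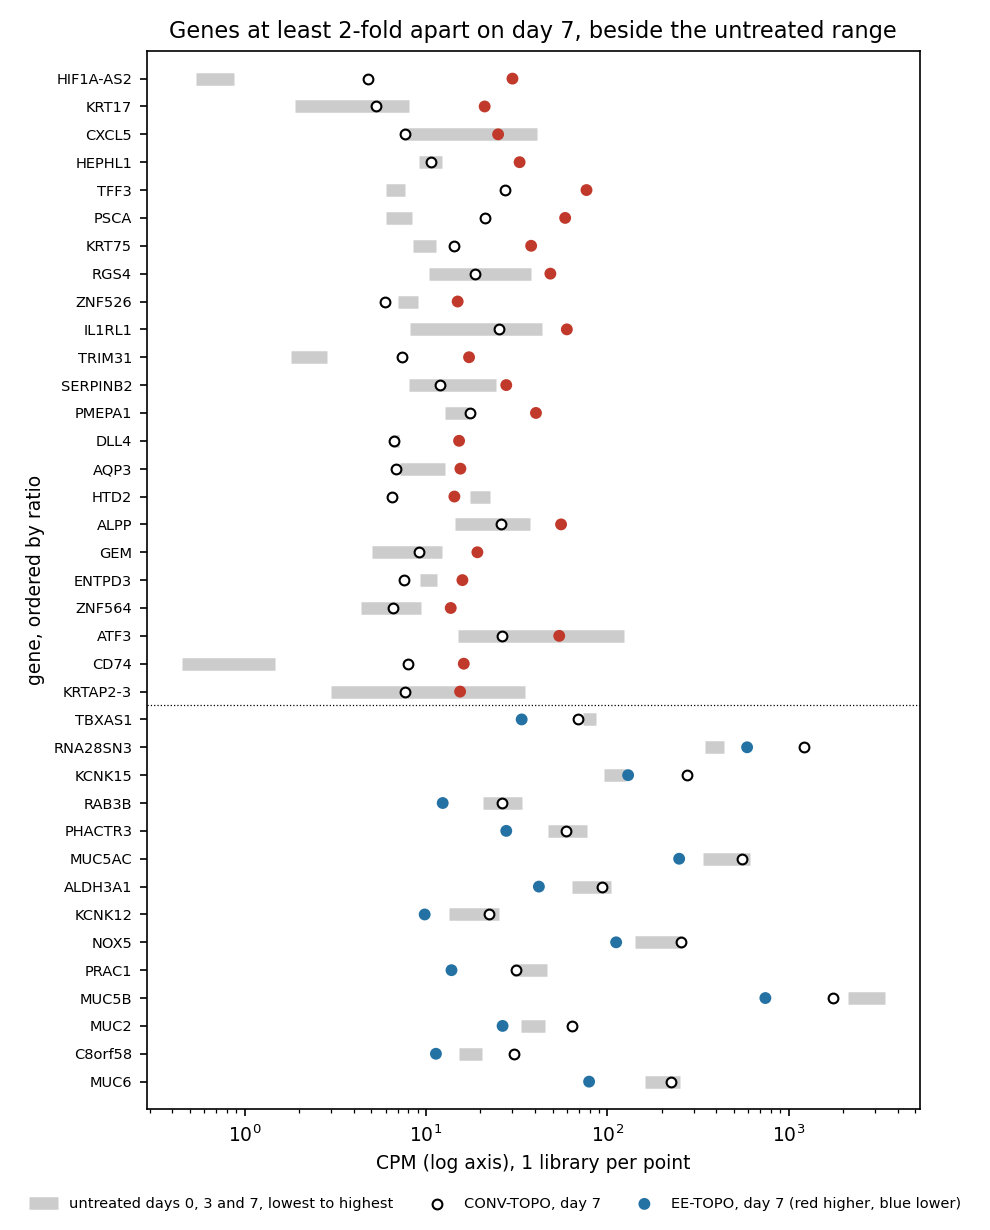
CPM (log axis) on day 7 of the 37 genes at least 2-fold apart, ordered by ratio, with CONV-TOPO as open points, EE-TOPO as filled points (red higher, blue lower) and untreated days 0, 3 and 7 as grey bars from the lowest to the highest. Filled points lie outside the bars for 34 of the 37 genes and open points inside them for 20.

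The genes at least 2-fold apart were placed against the untreated range. Of the 23 higher genes, EE-TOPO was above the range in 19, inside it in 3 (CXCL5, ATF3 and KRTAP2-3) and below it in 1 (HTD2), and CONV-TOPO was above in 7, inside in 12 and below in 4. Of the 14 lower genes, EE-TOPO was below the range in 12 and above it in 2 (KCNK15 and RNA28SN3), and CONV-TOPO was inside in 8, above in 4 and below in 2. Over all 9411 genes compared, 1718 were inside the range with EE-TOPO and 1790 with CONV-TOPO. The 37 genes were chosen by their ratio, so these counts are a description of them. With TMM-scaled values the counts with EE-TOPO were the same, while CONV-TOPO was above the range for 9, inside for 4 and below for 1 of the 14 lower genes, and above for 9, inside for 12 and below for 2 of the 23 higher genes. Without the untreated day-3 library, EE-TOPO was inside the range for 0 of the 37 genes and CONV-TOPO for 12.

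Among the other lists with the lowest medians, genes of mitosis had a median of -0.21, with 22 of 25 lower. In this list 6 (24.0%) were at least 20% lower, against 7.62% of all genes. MKI67, the proliferation antigen, was at 71.7 CPM with CONV-TOPO and 48.0 CPM with EE-TOPO, both below the untreated range of 103 to 192 CPM. The kinesin KIF20A was at -0.46 and the kinetochore protein CENPF at -0.44. On day 3 this list stood the other way, with a median of 0.47 and 23 of 25 higher with EE-TOPO. Genes of homologous recombination and the Fanconi pathway had a median of -0.22, and -0.05 with a filter of 5 CPM. In it 2 of 15 genes, ATRIP and RAD54L, were at least 20% lower (13.3%, against 7.62% of all genes).

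Hypoxia-inducible genes had a median of -0.20, with 7 of 20 at least 20% lower and 0 at least 25% higher, and on day 3 the median was -0.15. Over all genes 7.62% were at least 20% lower and 9.39% at least 25% higher. BHLHE40, a repressor induced by low oxygen, was at 410.1 CPM with CONV-TOPO, above the untreated range of 227 to 338 CPM, and at 252 CPM with EE-TOPO, inside it. ANGPTL4, a lipase inhibitor, was at 341 CPM and 252 CPM, both above the untreated 48.2 to 103 CPM. Of 19 glycolysis genes, 18 were lower with EE-TOPO, by little, and 1 by at least 20%, with a median of -0.15. ALDOC was at -0.44, HK2 at -0.31 and PFKP at -0.30, while the lactate transporter SLC16A1 was at 0.31. S100 proteins, small calcium binders, had a median of -0.19 with 7 of 10 lower, and on day 3 a median of -0.46 with 8 of 10 lower. On day 7, 2 were at least 25% higher and 1 at least 20% lower. The largest ratios were S100P at 0.56, S100A11 at 0.33, S100A2 at -0.37 and S100A9 at -0.29.

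Among the other lists with the highest medians, zinc finger genes of chromosome 19 had a median of 0.25. Many such genes encode repressors of transposable elements, but the list was taken by gene name and is not limited to these. Of 75 compared, 28 were at least 25% higher and 4 at least 20% lower, and on day 3 the median was 0.12. Over all genes 9.39% were at least 25% higher and 7.62% at least 20% lower, for this list and those that follow. ZNF526 and ZNF564 were more than 2-fold apart, and ZNF699 and ZNF587B followed at 0.87 and 0.81. Genes of the integrated stress response, which ATF4 turns on when translation is slowed, had a median of 0.22, with 6 of 19 at least 25% higher and 0 at least 20% lower. The amino acid transporter chain SLC3A2 was at 0.63, CEBPB at 0.56, CHAC1 at 0.50 and ASNS at 0.41. For SLC3A2, CEBPB and CHAC1 both schedules were above the untreated range. Host transcripts of small nucleolar RNAs had a median of 0.21, with 4 of 14 at least 25% higher, SNHG17, SNHG15 and SNHG32 among them at 0.68, 0.61 and 0.58, and SNHG1 at 0.40.

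Of the 51 lists, 30 had a median within 0.1 of 0. Lists not described lay between -0.14 and 0.19.

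**Figure D4:**
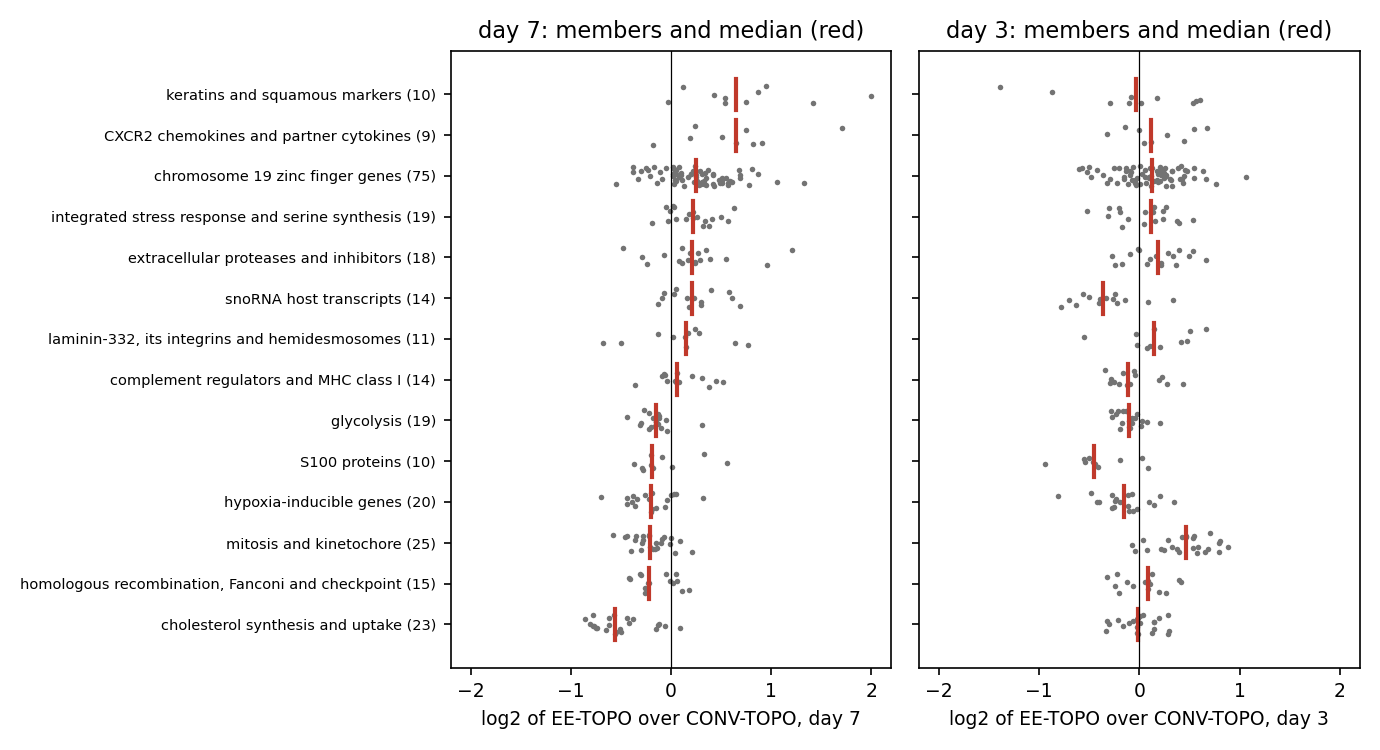
Log2 ratio of EE-TOPO to CONV-TOPO on day 7 (left) and day 3 (right) for the genes compared in each described list, 1 dot per gene and a red bar at the median, with the number of genes in brackets. The cholesterol list lies at a median of -0.56 on day 7 and -0.01 on day 3, and the mitosis list at -0.21 and 0.47.

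Day 3 shares no library with day 7, but the doses received by then were not matched. In the published schedule the bolus came at the start of the week and the fractions came daily. By day 3 EE-TOPO spheroids would thus have received only part of the dose given to CONV-TOPO spheroids. Schedule and dose cannot be told apart on that day. Of the 23 higher genes 18 (78.3%) were higher with EE-TOPO on day 3 too, and of the 14 lower genes 11 (78.6%) were lower. Over all genes compared, 55.8% of those higher and 55.6% of those lower on day 7 had the same direction on day 3. At 1.5-fold the shares were 73.9% of 188 and 66.9% of 139. Of these, TFF3 (log2 1.88), HEPHL1 (1.62), PMEPA1 (1.51) and ATF3 (1.02) were at least 2-fold higher on both days. KRT17, the second highest gene of day 7, was at -0.08 on day 3, and DLL4 was at -0.93. MUC6 and MUC5B, among the lowest of day 7, were at 0.20 and 0.08.

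**Figure D5:**
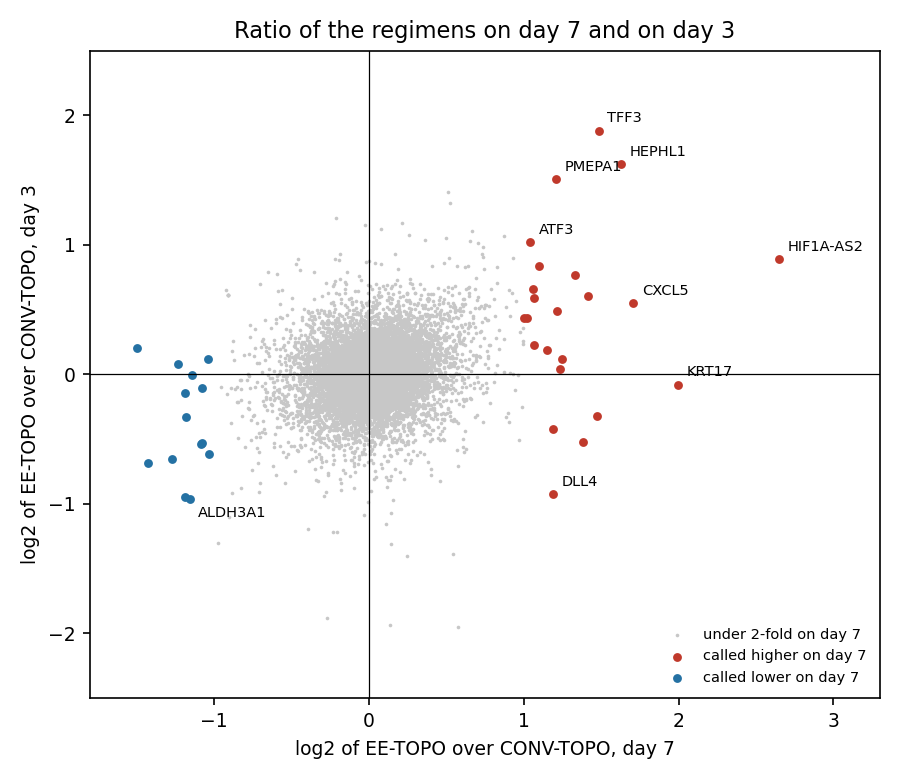
Log2 ratio of EE-TOPO to CONV-TOPO on day 7 (x) and day 3 (y), 1 point per gene compared and 1 library per schedule and day, with the 23 genes at least 2-fold higher on day 7 in red and the 14 lower in blue. TFF3, HEPHL1, PMEPA1 and ATF3 are above 1 on both axes and DLL4 is at -0.93 on day 3.

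Promoters in the RefSeq table were searched on both strands for CAGGTG and TGANTCA, whose matches can share letters (TG). The promoter of CD55 held neither motif, and that of LAMB3 held no TGANTCA. Of the genes compared, 7663 had a promoter in the table, and 17.5% of these held CAGGTG and 4.35% TGANTCA. Among the 23 higher genes, 19 had a promoter, 3 with CAGGTG (ALPP, KRT75 and KRTAP2-3) and 3 with TGANTCA (IL1RL1, SERPINB2 and ZNF564). Among the 14 lower genes, 5 had one, 1 with CAGGTG (RAB3B) and 3 with TGANTCA (MUC2, RAB3B and TBXAS1). At 1.5-fold, TGANTCA was held by 9.86% of 142 promoters of higher genes and 5.43% of 92 of lower genes, and CAGGTG by 20.4% and 19.6%. A sterol regulatory element, TCACNCCAC, was searched on both strands and chosen after the cholesterol genes were seen. It was found in 1 of 17 promoters of the cholesterol list (SREBF2) and in 1.08% of promoters of all genes compared. Of the 18 cholesterol genes at least 20% lower, 13 had a promoter in the table, and 0 of these held it. So few promoters cannot be set against a share that low.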

How the data were processed

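The authors extracted RNA from spheroids, made TruSeq RNA v2 libraries, aligned with STAR (hg38 build), and deposited gene counts scaled to CPM in 1 table (Partek is also named in the submitters' processing notes). Whether counting used strand is not given in the sources used here. The deposited CPM, with an added 0.0001 subtracted, sum to 1000000 per library. Libraries were grouped by their labels, and 0 columns were left unmatched. Of low values (under 1.5 CPM), 88.2% to 89.8% lay within 0.02 reads of a whole number, so no count test was run. Reads recovered from the steps gave exact conditional binomial intervals (scipy 1.17.1), which were tested on simulated data, as was the ratio. Where a gene is at 0, 3 reads allow 0.133 to 0.200 CPM. Ratios were taken without a pseudocount for genes with a mean of at least 10 CPM, and "at least 2-fold" was the threshold. GENCODE 44 gave transcript length and GC content for 98.6% of the genes compared.

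The members and gene lists were chosen with earlier results of these data known. Named genes were SNAI2, LAMB3, CD55 and HAS3, the 15 highest and 15 lowest ratios, up to 4 members of each described list, and 5 genes per class relative to the untreated range. A few genes that this rule names are not reported here. Others named (among them CEACAM5, further list members and overlapping genes) were chosen after their values were seen. Described lists were the 6 highest and 6 lowest medians and those holding SNAI2, LAMB3 or CD55. Alternatives covered scaling, filter, threshold, pseudocount, the trend with transcript length and GC content, overlapping genes and the untreated range. Python 3.11.15, numpy 2.4.6, pandas 2.3.3 and matplotlib 3.10.9 were used.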

Additional observations from a re-analysis of the deposited data

Results flagged for a closer look

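Several genes and lists stood on opposite sides on the days analysed, and with 1 library per schedule and day none of these differences was tested. In the published schedule the dose received by day 3 also differed between the schedules. Of the genes at least 2-fold higher with EE-TOPO on day 7, DLL4 had a log2 ratio of -0.93 on day 3, RGS4 -0.52, AQP3 -0.42 and PSCA -0.32. Their day-3 levels were 7.65 CPM with EE-TOPO and 14.5 CPM with CONV-TOPO for DLL4, and 50.4 and 63.0 CPM for PSCA. The median log2 ratio of the mitosis list was 0.47 on day 3 and -0.21 on day 7, and that of the snoRNA host transcripts was -0.36 and 0.21. The day-3 ratio had rank correlations of 0.40 with transcript length and -0.32 with GC content across genes, where the day-7 ratio had 0.02 and 0.06, and their part in these differences was not tested.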

How the results depend on the processing

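The number of genes at least 2-fold apart depended on the filter and the threshold. A filter of 5 CPM gave 62 genes higher and 30 lower, one of 20 CPM gave 9 higher and 12 lower, so that lower genes outnumbered higher ones, and no filter beyond a value above 0 in both libraries gave 884 higher and 723 lower. A threshold of 1.5-fold gave 188 and 139. TMM and median-of-ratios scaling each gave 26 higher and 19 lower, sharing 35 of the 37 genes, with the filter applied to the scaled values. Removing the trend with transcript length and GC content, adding 1 CPM or leaving out overlapping genes kept both counts within 1.5 times. Of the other 116 values recomputed, 105 stayed close and 11 moved, among them the keratin median (0.54 with a filter of 20 CPM, 0.80 with 5 CPM) and the recombination list (-0.05 with 5 CPM), and 0 changed sign. No paired analysis was possible because each group holds 1 library, and for the same reason none could be left out. At this depth genes near 10 CPM have wide counting intervals, as for ZNF526 (ratio 2.51, 1.97 to 3.22).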

Other observations

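Some genes outside the described lists also stood apart between the schedules, and they were chosen after their values were seen. CEACAM5, a surface glycoprotein of epithelial tumors, was at 338 CPM with CONV-TOPO and 672 CPM with EE-TOPO on day 7, where the untreated libraries held 187 to 273 CPM, and its relative CEACAM6 was at 149 and 219 CPM. Both were above the untreated range with EE-TOPO. Fatty acid synthesis had a median log2 ratio of -0.14, with 12 of 13 genes lower and 5 at least 20% lower (7.62% of all genes were). The desaturases FADS2 (-0.57) and SCD (-0.51) and the synthase FASN (-0.56) were the furthest of these. The phosphatase DUSP6, a target of ERK signalling, was at 256 CPM with CONV-TOPO and 169 CPM with EE-TOPO (log2 -0.60), and at 359 and 209 CPM on day 3. Its list of ERK feedback targets did not share this, with a median of -0.07 over 14 genes and 5 of them higher. DUSP6 was the only member at least 20% lower, and 1 was at least 25% higher.

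PECAM1, listed as a marker of endothelial cells, was at 27.6 CPM with CONV-TOPO and 16.8 CPM with EE-TOPO. The summed level of the 5 endothelial genes listed was 39.1 CPM with EE-TOPO, 47.0 CPM with CONV-TOPO and 41.9 to 61.9 CPM untreated. The sums for fibroblast markers were 60.3 and 55.7 CPM, and for immune markers 132 and 127 CPM.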
